A study of Homo sapiens with 14 samples.

Results

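The anoctamins (ANO, also TMEM16), the transmembrane channel-like proteins (TMC) and the TMEM63 proteins (relatives of the plant OSCA channels) form a superfamily of multi-pass membrane proteins. The 10 genes described here were chosen by name: ANO6, ANO8, ANO10, TMC4, TMC6, TMC7, TMC8, TMEM63A, TMEM63B and TMEM63C, out of 19440 gene symbols counted in the series. Of these, 8 had at least 20 counts in total and entered the fit with 9458 genes. TMC4 and TMC8 did not and are only noted.

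Selective ribosome profiling counts the messenger RNA fragments protected by ribosomes that are held together with a tagged protein. Here the tagged proteins were subunits of the ER membrane protein complex (EMC), which places membrane segments into the membrane of the endoplasmic reticulum (ER) while, or after, a protein is made. All cells were Flp-In T-REx 293, a derivative of the human embryonic kidney line HEK293, and all received doxycycline for 72 h, at 0.5 to 1.0 ng/mL, to switch on the tagged subunit. The EMC6 line was an EMC6 knockout with inducible 3Flag-EMC6, and the EMC7 and EMC10 lines carried inducible 3Flag-EMC7 and 3Flag-EMC10 with no knockout named. Solubilized microsomes (input) and the Flag-bound part of them (IP) were profiled, in 2 pairs for the EMC6 line, 2 for the EMC7 line and 3 for the EMC10 line. No library was an IP without a tagged bait, so ribosomes held through the EMC and other material on the beads cannot be told apart. The labels do not say whether a line was 1 clone or whether replicates came from separate cultures, so p-values reflect only how far these samples vary, which may be technical.

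Members of the superfamily share a core of membrane helices, and in the lipid-moving and ion-conducting members a groove between helices forms the path. Some anoctamins are calcium-activated chloride channels and others are scramblases, which let phospholipids pass between the leaflets of a membrane. TMC proteins include the mechanotransduction channels of inner-ear hair cells, and TMEM63 proteins open under membrane tension. Such proteins have many membrane segments, several of them of low hydrophobicity, and EMC is known to help insert and fold multi-pass proteins.

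Counts on genes ranged from 1692490 to 3395114 per input and from 515302 to 2248591 per IP, with the EMC6 line the shallowest. Of 8 genes known from HEK293 cells 7 had at least 10 counts, against 0 of 6 markers of mature kidney and 1 of 11 markers of blood, liver, endothelium and fibroblasts. NEFM was the HEK293 gene below that level, and the exception among the other markers was COL1A1. Across genes, which are not independent replicates, Pearson's r between replicate libraries was 0.898 to 0.986. In the EMC6 inputs, replicate 1 lay below replicate 2 for all 8 members, for example at 27.5 against 51.0 CPM for TMEM63A. Levels are given as CPM, counts relative to the library total after TMM scaling, which places the bulk of the genes near equal levels. Changes are log2 IP/input ± SE from edgeR's quasi-likelihood fit, with p-values adjusted by Benjamini-Hochberg over the 9458 genes and a threshold of 0.05.

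All 8 tested members rose in the IP with every bait. With the EMC6 bait 8 of 8 passed the test upward, where 17.6% of all genes did. With EMC7 8 of 8 rose against 20.4% of all genes, with EMC10 8 of 8 against 19.9%, and over the mean of the 3 lines 8 of 8 against 23.7%. Every IP library stood above every input library of its line for each of the 8 members, a separation met by 25.1%, 29.1% and 23% of all genes in the EMC6, EMC7 and EMC10 lines. The median log2 change of the members was 3.54, 3.12 and 3.02 with the EMC6, EMC7 and EMC10 baits, and 3.21 as the 3-line mean. The EMC6 value depended on single libraries: it was 4.18 without EMC6 input replicate 2 and 3.17 without input replicate 1. Without EMC6 IP replicate 2 it was 3.18, and without IP replicate 1 it was 3.76. The medians of all genes were -0.12, -0.14, -0.17 and -0.19. The scaling sets the zero of these changes: with library size alone the 3-line median was -1.13 for all genes and 2.26 for the members, and with scaling on 78 ER lumenal and secreted proteins it was -0.66 and 2.74. A scaling shifts all genes nearly alike, so both medians moved together and the distance between them could change little. As a share of all counts on genes, before any scaling, the 10 messages together took 370 to 639 CPM in the inputs and 2200 to 3250 CPM in the IPs.

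**Figure D1:**
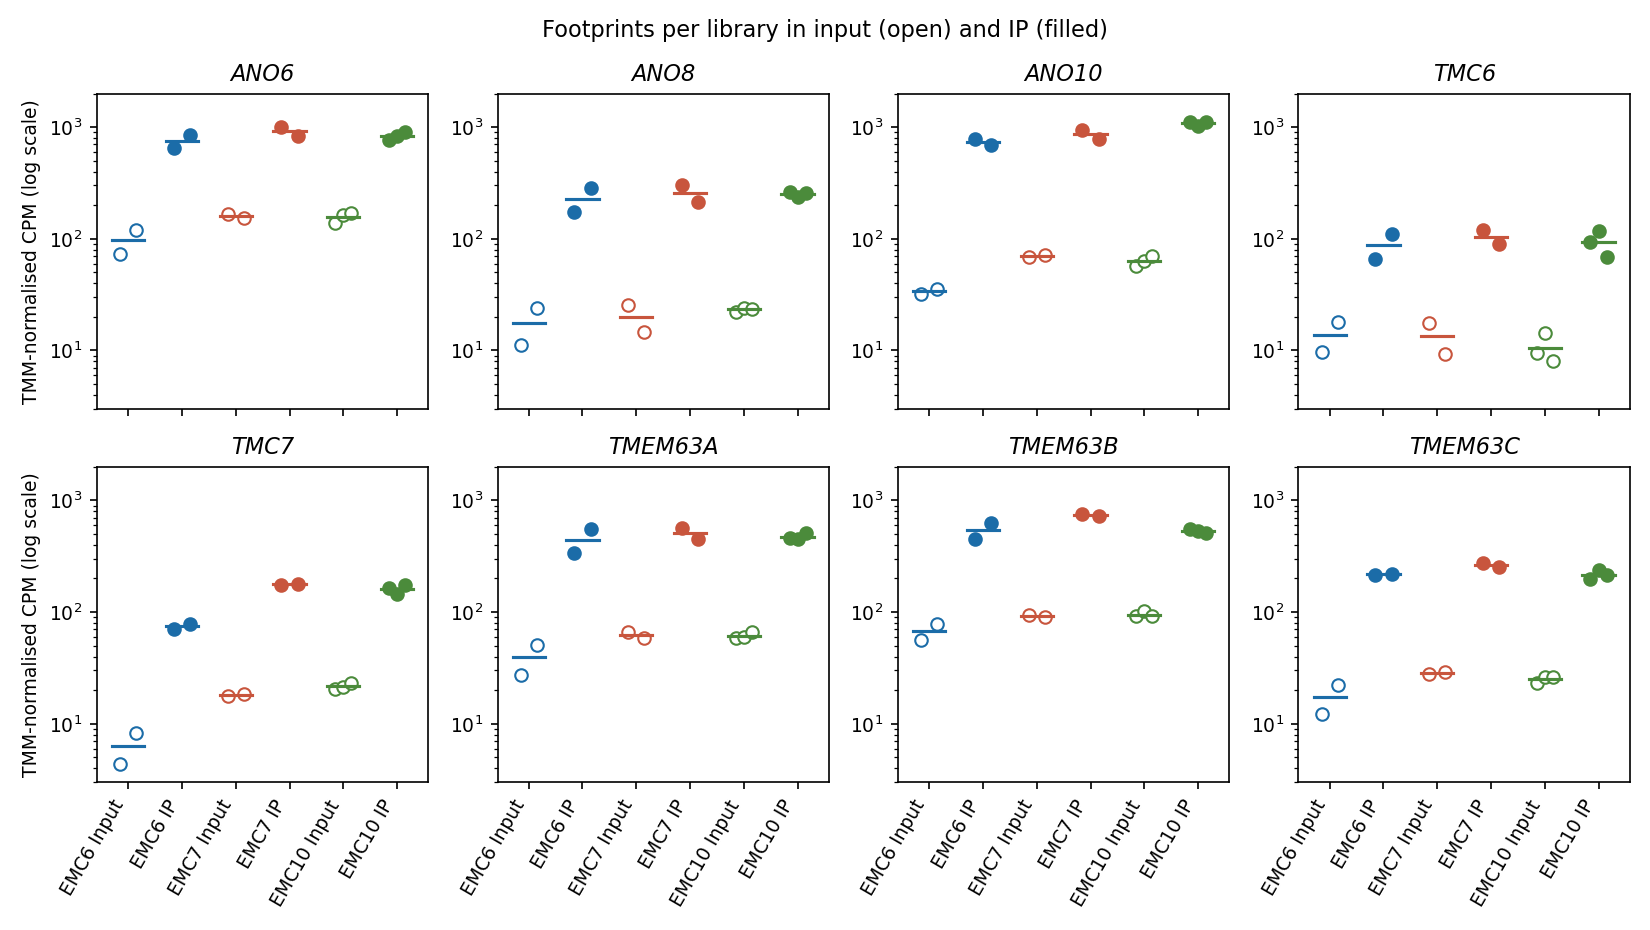
TMM-normalised CPM (log axis) of the 8 tested members in each library, by line and fraction; open circles are inputs, filled circles IPs and horizontal lines group means (n = 2 or 3). In every panel the filled circles of a line lie above its open circles, and for TMC7 both fractions of the EMC6 line lie below those of the other lines.

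The anoctamins held both the largest and the smallest change among the 8 members. ANO10 (TMEM16K; chromosome 3, 43365848 to 43691594, GRCh38.p14) is an intracellular scramblase of the ER and endosomes whose loss causes a recessive cerebellar ataxia. Its footprints stood at 31.8 and 35.6 CPM in the EMC6 inputs and at 781 and 693 CPM in the IPs. In the EMC7 line they went from 68.4 and 71.1 CPM to 944 and 788 CPM, and in the EMC10 line from 57.5, 63.3 and 69.4 CPM to 1108, 1033 and 1113 CPM. The IP values were thus more than 10 times the inputs in each line, with no overlap. The log2 change was 4.45 ± 0.20 with EMC6, 3.64 ± 0.18 with EMC7 and 4.10 ± 0.15 with EMC10 (adjusted p = 8.52e-20, 5.64e-18 and 2.94e-22, edgeR). Over the mean of the lines, at 4.06 ± 0.10 or 16.7-fold, ANO10 ranked 17 of 9458 genes.

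ANO6 (TMEM16F; chromosome 12, 45216095 to 45440404) is the calcium-activated scramblase that exposes phosphatidylserine on activated platelets. It stood at 72.7 and 121 CPM in the EMC6 inputs and at 654 and 849 CPM in the IPs. In the EMC7 line it went from 168 and 154 CPM to 1001 and 834 CPM, and in the EMC10 line from 139, 163 and 170.4 CPM to 772, 836 and 901 CPM. Input and IP did not overlap in any line, but the step between them was smaller than for ANO10. The log2 changes were 2.96 ± 0.21, 2.51 ± 0.20 and 2.41 ± 0.16 with EMC6, EMC7 and EMC10 (adjusted p = 1.49e-14, 4.23e-13 and 2.83e-15, edgeR). The mean change of 2.63 ± 0.11 was the smallest of the 8 members and still exceeded that of 97.0% of all genes.

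ANO8 (TMEM16H; chromosome 19, 17323223 to 17334855), which ties the ER to the plasma membrane, rose with the EMC6 bait from 17.6 ± 9.0 to 228 ± 79 CPM (SD, n = 2). With EMC7 it rose from 19.9 ± 7.7 to 258 ± 61 CPM (SD, n = 2), and with EMC10 from 23.3 ± 1.1 to 252 ± 13 CPM (SD, n = 3). Its replicates were spread widely in the EMC6 and EMC7 lines, yet the fractions stayed apart. The mean log2 change was 3.60 ± 0.15 (adjusted p = 2.10e-18, edgeR), between those of ANO6 and ANO10, and ranked 50 of all genes.

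**Figure D2:**
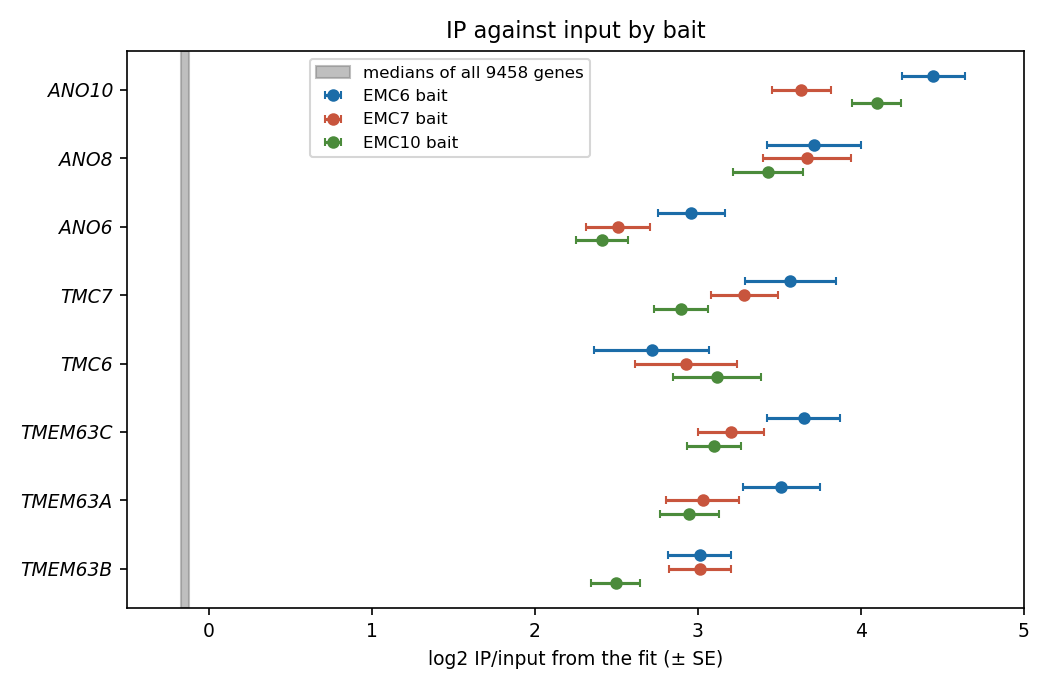
log2 IP/input (± SE) of each member with the EMC6, EMC7 and EMC10 baits; the grey band spans the 3 medians of all 9458 genes, -0.17 to -0.12. All values lie between 2.41 (ANO6 with EMC10) and 4.45 (ANO10 with EMC6), and ANO10 exceeds ANO6 with every bait.

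Whether anoctamins differed among themselves can be asked without any scaling, from the ratio of 2 messages within a library. The ratio of ANO10 to ANO6 counts was 0.295 to 0.461 in the 7 inputs and 0.817 to 1.44 in the 7 IPs. It rose from input to IP in 7 of 7 pairs, by 2.75-fold on average (log2 1.46 ± 0.26, SD), with means of 1.46, 1.12 and 1.69 in the EMC6, EMC7 and EMC10 lines. An exact permutation test that flips the signs of the pairs, two-sided, gave p = 0.015625, the smallest that 7 pairs allow, and 0.0365 after Benjamini-Hochberg adjustment over the 7 ratios compared within families. The ratio of ANO8 to ANO6 also rose in 7 of 7 pairs, by 2.01-fold (log2 1.01 ± 0.24, SD; exact p = 0.015625, adjusted 0.0365). ANO10 against ANO8 moved by 0.45 ± 0.43 (SD; higher in 6 of 7 pairs, exact p = 0.0469, adjusted 0.0547) and was lower by 0.10 in the mean of the EMC7 pairs, so these did not pass. The 7 pairs are replicates of 3 lines and were taken as independent, and these ratios were chosen with the values known.

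**Figure D3:**
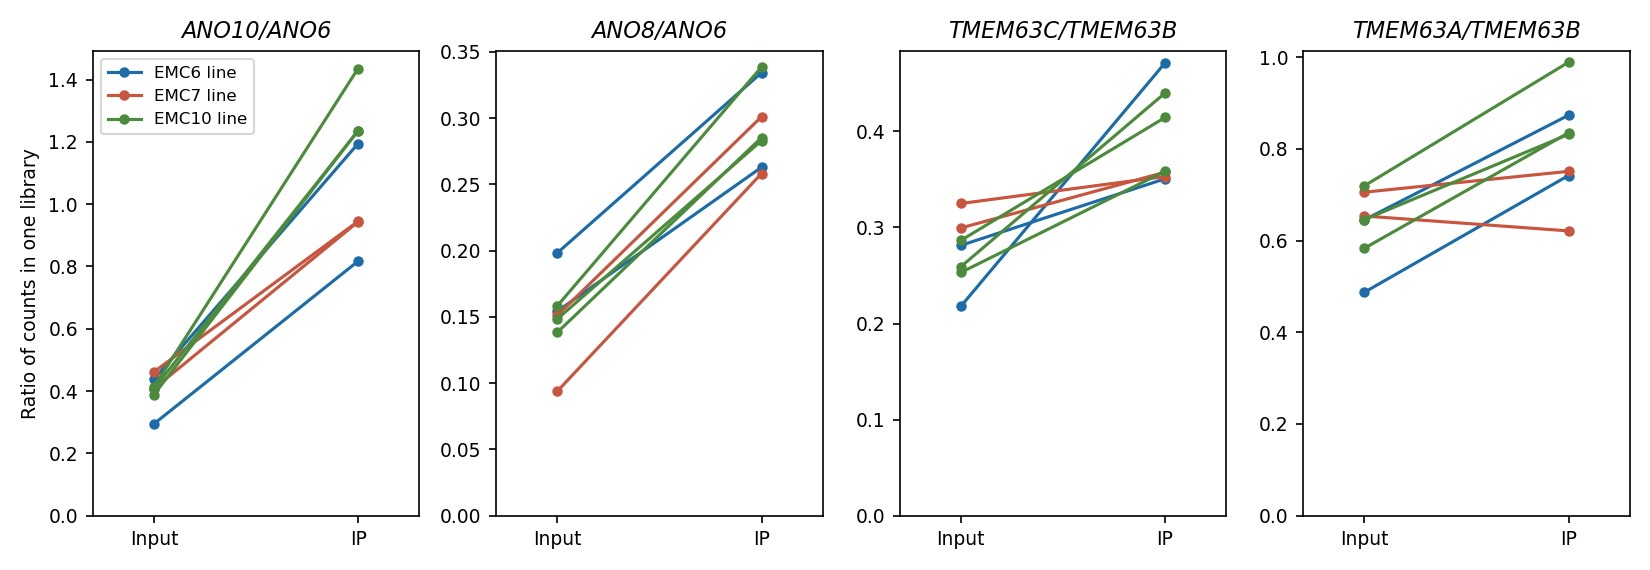
Ratio of counts of 2 members in the same library, joined from input to IP of one pair (linear axes from 0), coloured by line. ANO10/ANO6, ANO8/ANO6 and TMEM63C/TMEM63B rise in 7 of 7 pairs and TMEM63A/TMEM63B in 6 of 7.

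Of the TMC genes 2 of 4 were measured. TMC7 (chromosome 16, 18983934 to 19063942) had 12 and 24 counts in the EMC6 inputs and 38 and 72 in the IPs, or 4.34 and 8.21 CPM against 71.0 and 78.9 CPM. In the EMC7 line it went from 17.7 and 18.7 CPM to 176 and 179 CPM, and in the EMC10 line from 20.6, 21.3 and 23.0 CPM to 165, 145 and 175 CPM. The fractions did not overlap in any line, while the EMC6 line was lower than the others in both. How many of all genes were lower in that way was not counted. The log2 changes were 3.57 ± 0.28, 3.29 ± 0.20 and 2.90 ± 0.16 with EMC6, EMC7 and EMC10 (adjusted p = 3.92e-13, 1.37e-15 and 2.72e-17, edgeR).

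TMC6 (EVER1; chromosome 17, 78107397 to 78132427) sits in the ER membrane with TMC8 and the soluble protein CIB1, and its loss causes epidermodysplasia verruciformis, a susceptibility to skin papillomaviruses. It was the least covered of the 8 members in total, with 27 to 75 counts per input and 35 to 165 per IP. Its level rose from 13.8 ± 5.7 to 88.0 ± 32.0 CPM (SD, n = 2) in the EMC6 line, from 13.4 ± 5.7 to 104 ± 20 CPM (SD, n = 2) in the EMC7 line and from 10.6 ± 3.3 to 93.4 ± 24.3 CPM (SD, n = 3) in the EMC10 line. The inputs of the 3 lines overlapped one another, and so did the IPs. The log2 changes were 2.72 ± 0.35, 2.93 ± 0.31 and 3.12 ± 0.27 (adjusted p = 1.02e-06, 3.48e-08 and 7.01e-10, edgeR). The ratio of TMC7 to TMC6 rose in 3 of 7 pairs, with a mean log2 change of 0.24 ± 0.60 (SD, exact sign-flip permutation p = 0.344, adjusted 0.344). The line means were 0.96 with EMC6, 0.27 with EMC7 and -0.25 with EMC10: it rose in both EMC6 pairs and fell in all 3 EMC10 pairs, and the difference between lines was not tested.

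TMC8 (EVER2; chromosome 17, 78130771 to 78142968), the partner of TMC6, had 2 counts over all libraries, 1 in each EMC6 input. TMC4 (chromosome 19, 54160108 to 54173160), a chloride channel of taste buds, had 0 counts among 28790433 counts on genes, which allows up to 0.104 CPM (unscaled) by counting error alone. No fold is given for either. TMC6 and TMC8 overlap by 1657 bases in the RefSeq table, and reads in such a stretch may have been left out or assigned to one of them, since the strand setting is not given in the sources used here.

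The TMEM63 proteins are mechanically activated cation channels, and human variants of TMEM63A and TMEM63B cause disorders of myelin and brain development. TMEM63B (chromosome 6, 44126633 to 44155519) stood at 56.4 and 79.0 CPM in the EMC6 inputs and at 456 and 631 CPM in the IPs. In the EMC7 line it went from 94.0 and 90.1 CPM to 762 and 725 CPM, and in the EMC10 line from 91.6, 102 and 91.6 CPM to 558, 538 and 514 CPM. Inputs of the EMC7 and EMC10 lines overlapped, whereas both EMC7 IPs lay above all 3 EMC10 IPs. The share of all genes with such an order of IPs was not counted, so it is a description only. The log2 changes were 3.01 ± 0.19, 3.01 ± 0.19 and 2.50 ± 0.15 with EMC6, EMC7 and EMC10 (adjusted p = 2.45e-15, 1.78e-15 and 2.28e-16, edgeR).

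TMEM63A (chromosome 1, 225840556 to 225882380) rose from 39.2 ± 16.6 to 445 ± 150 CPM (SD, n = 2) in the EMC6 line, from 62.6 ± 5.3 to 511 ± 86 CPM (SD, n = 2) in the EMC7 line and from 61.5 ± 3.8 to 474 ± 31 CPM (SD, n = 3) in the EMC10 line. Its mean log2 change was 3.16 ± 0.12 (adjusted p = 5.01e-22, edgeR). TMEM63C (chromosome 14, 77181798 to 77259495), mutated in a hereditary spastic paraplegia, rose from 17.3 ± 7.0 to 218 ± 4 CPM (SD, n = 2), from 28.7 ± 0.8 to 264 ± 12 CPM (SD, n = 2) and from 25.3 ± 1.8 to 216 ± 19 CPM (SD, n = 3) in the EMC6, EMC7 and EMC10 lines. Its mean log2 change of 3.32 ± 0.12 (adjusted p = 6.04e-24, edgeR) was the largest of the 3. Within libraries the ratio of TMEM63C to TMEM63B rose in 7 of 7 pairs, by 1.43-fold (log2 0.51 ± 0.34, SD; exact sign-flip permutation p = 0.015625, adjusted 0.0365). TMEM63A against TMEM63B rose in 6 of 7 pairs by 0.34 ± 0.25 (SD; exact p = 0.03125, adjusted 0.0547), and TMEM63C against TMEM63A in 6 of 7 by 0.17 ± 0.19 (SD; exact p = 0.0469, adjusted 0.0547). Neither passed after adjustment. The EMC6, EMC7 and EMC10 line means were 0.72, 0.19 and 0.60 for TMEM63C against TMEM63B. For TMEM63A against TMEM63B they were 0.52, 0.008 and 0.45, so almost nothing changed with EMC7. The limits given for the anoctamin ratios hold here too.

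Ordered by the mean log2 change of the 3 lines, the 8 members ran from ANO10 (4.06 ± 0.10) through ANO8 (3.60 ± 0.15), TMEM63C (3.32 ± 0.12), TMC7 (3.25 ± 0.13), TMEM63A (3.16 ± 0.12), TMC6 (2.92 ± 0.18) and TMEM63B (2.84 ± 0.10) to ANO6 (2.63 ± 0.11). The 5 from TMEM63C to TMEM63B spanned 2.84 to 3.32, and each differed from its neighbour in the order by less than the sum of their SEs. The lowest, ANO6, lay above 97.0% of all genes and the highest, ANO10, above 99.8%.

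**Figure D4:**
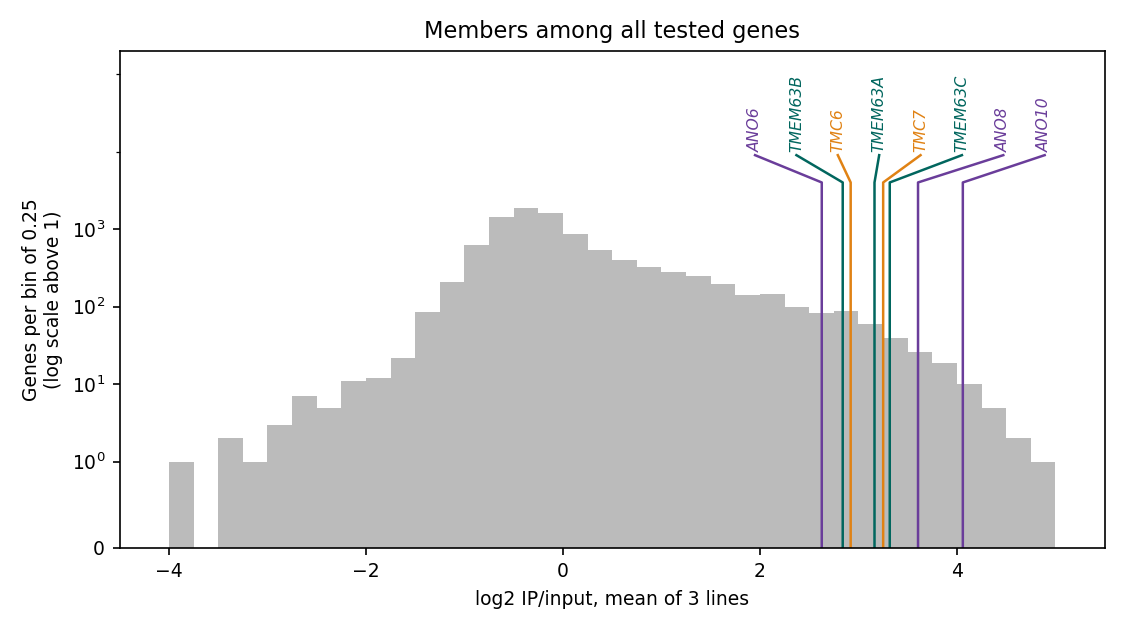
Number of genes per bin of 0.25 in log2 IP/input over the mean of the 3 lines (log axis above 1), for all 9458 tested genes, with a line at each member coloured by family. The 8 members lie between 2.63 and 4.06, in the upper tail of a distribution whose median is -0.19.

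The second question of the design is whether the baits differed in what they held. No member passed the test of a difference between baits without pairing: 0 of 8 for EMC6 against EMC7 (0.518% of all genes called in either direction), 0 of 8 for EMC6 against EMC10 (0.074%) and 0 of 8 for EMC7 against EMC10 (0.159%). At an unadjusted p under 0.05, ANO10 was at 0.81 ± 0.25 for EMC6 against EMC7 (adjusted p = 0.131, edgeR), ANO6 and TMEM63B at 0.55 ± 0.25 and 0.52 ± 0.24 for EMC6 against EMC10, and ANO10 and TMEM63B at -0.46 ± 0.22 and 0.52 ± 0.23 for EMC7 against EMC10 (adjusted p = 0.661 to 0.776, edgeR). How many of all genes lay under the unadjusted p of 0.05 was not counted, so these members cannot be said to stand out. The labels have a batch field that holds the replicate number, taken here to join each IP to the input of its line. Deviations of joined libraries from their group means correlated at 0.25 for EMC6, but at 0.07 for EMC7 and between 0.03 and 0.09 for EMC10, so the calls below rest on that label. With these pairs as a replicate block in the fit, the bait differences kept their sizes and had smaller errors, and 6.31%, 2.23% and 4.38% of all genes were called in the 3 comparisons. Errors also shrank where joined libraries hardly correlated: the SE of ANO6 IP/input with EMC7 went from 0.20 to 0.09. The adjusted p of that change went from 4.23e-13 to 1.06e-150 (edgeR). From 14 libraries, so small a value means that the block fit treated the spread between libraries as nearly known. How much of the smaller errors came from the pairing was not tested. The calls below rest on the block fit's estimate of spread too and may be too many.

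With that block, 2 of 8 members passed for EMC6 against EMC7. ANO10 was higher with EMC6 by 0.80 ± 0.16 (adjusted p = 3.37e-05, edgeR) and ANO6 by 0.45 ± 0.13 (adjusted p = 0.0148). For EMC6 against EMC10, 3 of 8 passed: ANO6 by 0.55 ± 0.12 (adjusted p = 0.00121), TMEM63B by 0.51 ± 0.14 (adjusted p = 0.0159) and TMEM63A by 0.56 ± 0.16 (adjusted p = 0.0231). For EMC7 against EMC10, TMEM63B was higher with EMC7 by 0.52 ± 0.13 (adjusted p = 0.00156) and ANO10 lower by 0.46 ± 0.13 (adjusted p = 0.0108). None of these differences passed without the block. There ANO10 for EMC6 against EMC7 had a 95% interval of 0.30 to 1.32 (adjusted p = 0.131, edgeR). The p-values with the block may be far too small, as said above, so these calls are no firm evidence of a difference between baits. All these differences are small beside the changes of 2.41 to 4.45 from input to IP. ANO8 did not pass for any pair of baits. Its 95% interval for EMC6 against EMC7 was -0.76 to 0.84 without the block and -0.43 to 0.44 with it. The wider interval leaves room for a difference as large as those called.

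The EMC6 comparisons leaned on the EMC6 inputs. Without EMC6 input replicate 2, 3 of 8 members passed unpaired as higher with EMC6 than with EMC7 (2.54% of all genes) and 4 of 8 as higher than with EMC10 (2.29%), and without EMC6 input replicate 1 none did in either. With library size alone 6 of 8 passed for EMC6 against EMC10 (5.21% of all genes higher), where the median of all genes was itself at 0.46. Of the IP counts, 24.6% to 26.1% fell on the bait's own message with EMC10, and 0.431% to 0.449% with EMC6, and 14.4% to 15.0% with EMC7. With the bait messages left out before scaling, the median difference of the members was 0.36 for EMC6 against EMC7 and 0.53 for EMC6 against EMC10, as with them, and 0 of 8 passed in either.

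The inputs also differed between lines. In the microsomes of the EMC6 line 6 of 8 members were lower than in the mean of the other lines, where 21.8% of all genes were called lower, and 0 of 8 were higher, against 15.3%. TMC7 was lower by the most, at -1.64 ± 0.25 or 3.12-fold (adjusted p = 1.84e-06, edgeR), followed by ANO10 at -0.98 ± 0.17 or 1.97-fold (adjusted p = 1.32e-05) and ANO6 at -0.72 ± 0.17 (adjusted p = 0.000996). TMEM63A, TMEM63C and TMEM63B stood at -0.66, -0.63 and -0.46. ANO8 (-0.30 ± 0.26) and TMC6 (0.19 ± 0.31) did not pass. For TMC7, the EMC6 inputs at 4.34 and 8.21 CPM lay below all 5 other inputs, at 17.7 to 23.0 CPM. The share of all genes with such a separation of inputs was not counted.

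The direction of the input differences depended on the scaling. With scaling on ER lumenal and secreted proteins, 3 of 8 members were called higher and 1, TMC7 (-0.62, adjusted p = 0.0288), lower, where 73.8% of all genes were called higher and 2.51% lower and the median of all genes moved to 1.10. The share of members called higher was thus below that of all genes. Relative to the median of all genes, 7 of 8 members were lower in the EMC6 inputs under each of the 5 scalings and tools compared, with TMC7 at -1.72 to -1.71 and ANO10 at -1.05 to -1.04. A scaling shifts all genes nearly alike, so these distances could hardly change and their agreement is no further support. Without EMC6 input replicate 1, 2 of 8 were called lower, ANO10 and TMC7, where 16.2% of all genes were. Counts per gene in bulk libraries do not tell fewer messages from fewer ribosomes per message, nor fewer cells with a message from less of it per cell. Between the EMC7 and EMC10 inputs 0 of 8 members differed (0.0211% of all genes called; 0 at an unadjusted p under 0.05 and 0 with DESeq2), with log2 differences of -0.25 to 0.36.

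**Figure D5:**
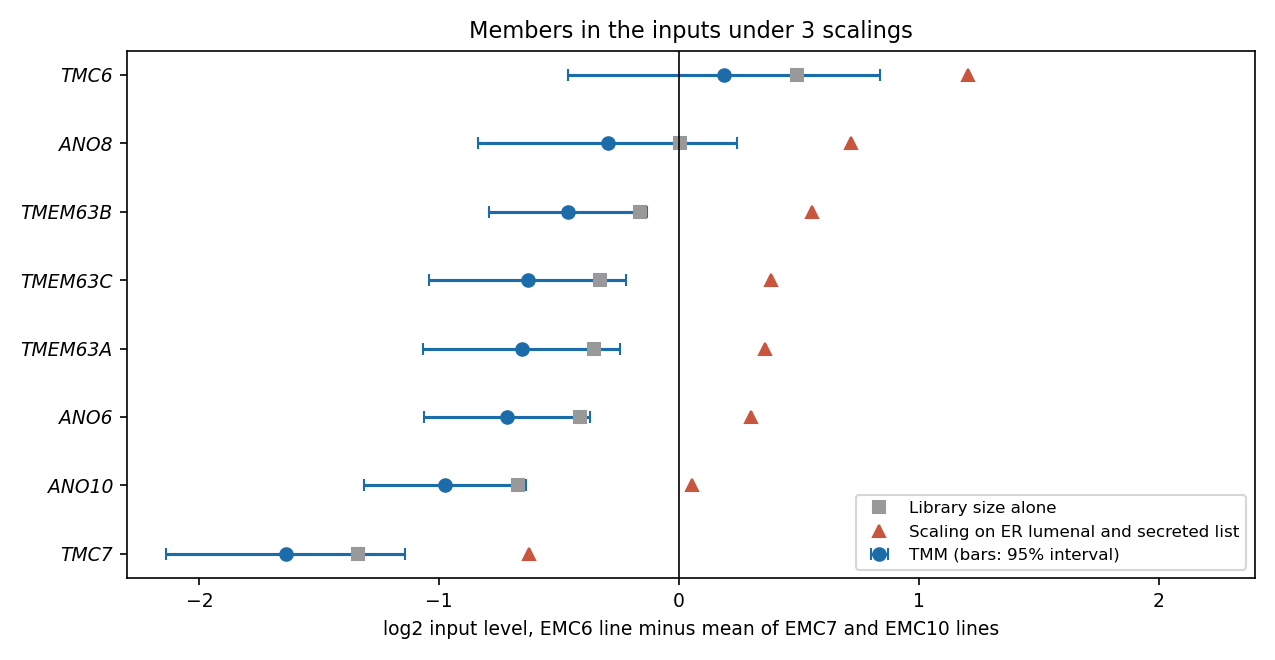
log2 difference of each member between the EMC6 inputs and the mean of the EMC7 and EMC10 inputs, with TMM (circles, 95% interval), library size alone (squares) and scaling on ER lumenal and secreted proteins (triangles). The whole set moves to the right from circles to triangles, and the order of the members, from TMC7 to TMC6, is kept. A scaling shifts all genes nearly alike, so the order could hardly change.

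Other genes of the same families and functions were read from lists fixed with earlier results of these data known. Of 11 further anoctamin and TMC genes, 4 were covered well enough to be tested, and 3 of the 4 rose over the mean of the lines, for which 23.7% of all genes were called higher and 26.9% lower. The same shares stand beside the counts of the next lists. ANO5, a muscle and bone anoctamin mutated in limb-girdle muscular dystrophy, rose by 3.42 ± 0.12 (adjusted p = 1.36e-23, edgeR). It had 80 to 367 counts per input and 190 to 1239 per IP. TMC5 rose by 3.44 ± 0.19 (adjusted p = 8.35e-18, edgeR). ANO1, the calcium-activated chloride channel, had 0 to 3 counts per input and 0 to 6 per IP and was called higher, but with no count in the EMC7 inputs it is given no fold. ANO4, with 0 to 10 counts per input and 0 to 19 per IP, rose by 2.28 ± 0.57 with EMC7 (adjusted p = 0.00179, edgeR) and 3.04 ± 0.49 with EMC10 (adjusted p = 4.93e-06). It had no count in the EMC6 IPs and did not pass over the mean.

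Of 17 other scramblases and their subunits 9 were tested, and 7 rose and 2 fell over the mean of the lines. The multi-pass scramblases ATG9A of autophagosomes (3.48 ± 0.10), XKR8 of apoptotic cells (3.71 ± 0.14) and VMP1 of the ER (2.28 ± 0.09) rose, as did TMEM41B by 1.36 ± 0.11. ATG9A and VMP1 were named by their level and XKR8 and TMEM41B after their values were seen. The glycoproteins BSG and NPTN, single-pass subunits of Xk-related scramblases, stood at 0.21 ± 0.08 (adjusted p = 0.0310) and -0.32 ± 0.10 (adjusted p = 0.00528), where the median of all genes was -0.19. PLSCR1, which is not a multi-pass protein, fell by 1.20 (SE 0.27, adjusted p = 0.000320).

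Of 11 other genes listed as proposed mechanically activated channels, a role not examined here, 8 were tested and 7 rose over the mean of the lines. PIEZO1 rose by 3.24 ± 0.11, TMEM120A by 2.59 ± 0.14, TRPM7 by 2.45 ± 0.12 and TMEM87A by 1.89 ± 0.10. The TMC and anoctamin partner list had 2 tested genes of 6. The zinc exporter SLC30A1, a binding partner of TMC6 and TMC8, rose by 2.94 ± 0.10 (adjusted p = 2.20e-24, edgeR), and the soluble partner CIB1 stood at 0.17 ± 0.19 (adjusted p = 0.459).

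Several members overlap other genes in the RefSeq table. Of the protein-coding genes with such an overlap 4 were tested, and 3 did not pass: DDA1 beside ANO8 stood at -0.28 ± 0.27, TNRC6C beside TMC6 at -0.30 ± 0.26 and MRPL14 beside TMEM63B at 0.10 ± 0.13 over the mean of the lines. EPHX1 beside TMEM63A, an ER membrane hydrolase, rose by 1.88 ± 0.10 (adjusted p = 3.98e-19, edgeR), the same direction as TMEM63A. Reads of overlapping genes cannot be told apart without a strand setting, and these neighbours were looked at after the values were seen.

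Across the 7 pairs of IP and input, the genes named here, whose log2 changes lay closest to those of the member with the most counts in each family, were also multi-pass proteins. For ANO6 they included the acyltransferases AGPAT3 and AGPAT5 (root mean square difference 0.120 and 0.127 on the log2 scale). For TMC7 they were NPC1L1, CLCN7 and TMEM175 (0.191, 0.220 and 0.225), and for TMEM63B the copper pump ATP7B, POMT1 and CLCN6 (0.139, 0.152 and 0.161). The search covered 6323 genes with at least 10 CPM in the mean of all libraries, and likeness over 7 pairs is a description.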

How the data were processed

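Ribosome footprints were measured in 14 libraries. The authors deposited raw counts, whole numbers per gene symbol. The tools named are cutadapt 4.1, TopHat2 2.1.0 and Bowtie2 2.2.6, with build hg38, per the submitters' processing notes. Annotation, strand setting and duplicate removal: not given in the sources used here. Of 19440 symbols 18968 matched the RefSeq table of GRCh38.p14, used for positions. The 5 rows that name no gene were left out; reads outside genes made up 2.53% to 12.1% of counts.

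All libraries entered 1 edgeR 4.0.16 fit (R 4.3.3, limma 3.58.1) with a mean per line and fraction, TMM, filterByExpr and a robust quasi-likelihood test. Ratios of members were tested by exact sign flips over pairs. The labels' batch field, which holds the replicate number, was taken to pair input and IP; deviations of same-numbered samples from group means correlated at 0.25 (EMC6), 0.07 (EMC7) and 0.03 to 0.09 (EMC10). Alternatives were DESeq2 1.42.0, other scalings, no filter, no bait messages, a replicate block, single lines, a fold of 1.5 and leaving out each library. No replicates of a group were duplicates of each other: chi-square over its degrees of freedom was 1.92 to 8.45 between them. Libraries of different groups were not compared in this way. Tested on simulated data (9203 genes, 3-line mean), the fit found 64%, 94%, 100% and 100% of changes of 1.5, 2, 4 and 8-fold, with 12 false calls of 190. For single lines it found less: 6%, 34%, 83.7% and 94% with EMC6, 24%, 64%, 93.9% and 98% with EMC7, and 28%, 76%, 98.0% and 100% with EMC10. For bait differences no changes were planted. The simulation gave all lines the same input profile, few changed genes, no pairing and no load of bait messages. In the data 23.7% of genes were called higher and 26.9% lower over the 3-line mean, so its recovery and false calls may not carry over.

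Members, lists and rules were chosen with earlier results of these data known. Named were all members, up to 4 tested genes per related list by mean level, and the 3 genes most like the member with the most counts in each family, of which 1 is not reported here; XKR8, TMEM41B and the overlapping neighbours were added after their values were seen. Protein sequences were not used here.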

Additional observations from a re-analysis of the deposited data

How the results depend on the processing

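The IP/input rise of the members held throughout: all 736 single values under the alternatives stayed above 0 and past the test, with 1.29 the lowest and 0.000707 the largest adjusted p, and 8 of 8 members rose in each line and in the mean, also with the EMC6 line left out of the mean (an alternative chosen after the data were seen). Bait differences depended on the setting. For EMC6 against EMC7 the members called numbered 0, but 1 with DESeq2, 1 with library size alone, 1 with scaling on the lumenal list, 2 with the replicate block and 0 to 3 without single libraries (3 without EMC6 input replicate 2). For EMC6 against EMC10 they numbered 0, but 6 with library size alone, 3 with the replicate block and 0 to 4 without single libraries (4 without EMC6 input replicate 2). Calls over all genes moved too across the settings that kept every library. For EMC6 against EMC7 they ran from 4 to 267 genes higher and from 1 to 330 lower. For EMC6 against EMC10 they ran from 5 to 493 higher and from 0 to 33 lower. The member counts are thus no result about the members alone. For EMC7 against EMC10 the block gave 1 member higher and 1 lower. The block changed no other call of a member, and a block could not be fitted to differences between inputs of different lines. Members lower in the EMC6 inputs numbered 6, but 3 with library size alone, 1 with scaling on the lumenal list, 2 in the test against a fold of 1.5, and 2 to 7 without single libraries (2 without EMC6 input replicate 1). With scaling on the lumenal list 3 were called higher, and ANO6, ANO8, ANO10, TMEM63A, TMEM63B and TMEM63C turned to 0.30, 0.72, 0.053, 0.36, 0.56 and 0.38. The cause of these shifts was not tested. Across the settings that kept every library, 237 to 2199 of all genes were called lower in the EMC6 inputs and 236 to 6976 higher. Leaving out a library of a group of 2 leaves a lone sample, assumed to vary like the other groups. Counts over all genes moved further: in the EMC6 line 1666 rose and 877 fell, against 990 and 4320 with library size alone. Depth limits TMC6, TMC8 and TMC4. It also limits TMC7 in the EMC6 line, with 12 and 24 counts in the inputs and 38 and 72 in the IPs.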
